A study of Mus musculus with 20 samples.

Results

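The probe sets described here are stretches of a gene whose signal shifted against the rest of that gene between 1 and 10 months of age in retinas of Nrl-/- mice. A probe set is a small group of array probes that reads 1 short piece of a transcript, usually an exon or a part of one. For each of the 20 arrays the median log2 intensity over all probe sets of a gene was taken as the gene's level, and the probe set's distance from it, probe set minus gene, was taken as its deviation. A shift is the mean deviation on the 4 arrays of 10 months minus that on the 4 arrays of 1 month, in log2 units. Probe sets were eligible where the gene had at least 8 probe sets and a mean level above 7 and the probe set itself had a mean level above 6, which left 102059 probe sets in 6401 genes. The members are the 661 eligible probe sets (0.648% of them) with a shift of at least 0.8 in either direction: 324 (0.317%) were upward, with a higher deviation at 10 months, and 337 (0.330%) were downward. They lie in 516 genes, 8.06% of the eligible ones. Since the members were picked by this shift, every value from 1 and 10 months below is a description without a test.

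The mice were on the C57Bl/6J strain, all carried the Nrl-/- genotype, and a sample was the pair of retinas of 1 mouse with no further treatment named. The 5 groups were 1, 2, 4, 6 and 10 months old, with 4 mice each. Age was what the labels varied, but the groups also differed in a Y-linked gene, as given below with the marker genes. Retinas of wild-type mice were not analysed here, and an effect of age cannot be told apart from an effect of age in the absence of Nrl.

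Many genes make more than 1 transcript. The splicing machinery can include or skip an exon, use another splice site or leave an intron in place, and transcripts can begin or end at different places. SR proteins and heterogeneous nuclear ribonucleoproteins bind the precursor RNA and steer these choices, and neurons and photoreceptors are known for a rich set of alternative exons. Nrl is the transcription factor by which newborn photoreceptors become rods, and without it they take on the form of cones. Where the probe sets lie in their genes was not analysed here, so the members are called probe sets and not exons, and whether they read coding exons, untranslated ends or introns was not tested. The levels of different probe sets depend on their probes, so only the difference of a deviation between ages was read.

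The tissue label was checked against marker genes. The mean level of 6 cone genes lay between 12.28 and 12.41 at 1 month and between 11.91 and 12.10 at 10 months, and that of the 4 rod genes measured (of 6 listed) between 6.49 and 7.02, with Nrl itself, at 6 probe sets too few to be eligible, between 5.86 and 6.67 on all arrays. Muller glia markers (4 of 4) lay between 10.51 and 10.60 at 1 month and between 10.95 and 11.21 at 10 months, and blood vessel markers (4 of 4) between 7.90 and 8.17 and between 7.41 and 7.64. Lens markers (5 of 5 measured) lay between 6.98 and 8.09 at 1 month and between 5.23 and 5.73 at 10 months, and pigment epithelium markers (6 of 6) between 6.29 and 6.56 at 1 month and between 6.25 and 7.67 at 10 months. The Y-linked gene Eif2s3y was low on all 4 arrays of 2 months (3.28 to 3.78) and on replicates 2 and 3 of 10 months (3.66 and 3.64), and between 7.27 and 8.92 on the others. Replicate 4 of 4 months had the lowest mean correlation with the other arrays, 0.960, followed by replicate 3 of 10 months (0.969) and replicate 1 of 1 month (0.972). The mean levels of the cone, Muller glia, blood vessel and lens lists thus did not overlap between 1 and 10 months. Nor did bipolar (10.27 to 10.35 and 10.44 to 10.61) and amacrine levels (10.68 to 10.83 and 10.90 to 11.08). Ganglion cell levels (9.08 to 9.28 and 9.33 to 9.49) and the red blood cell gene Alas2 (6.31 to 6.43 and 5.86 to 6.30) did not either. Mean levels of the rod, horizontal cell, microglia and pigment epithelium lists overlapped. Single genes did not all go with their list. Gnat2, Pde6c and Gngt2 overlapped among the cone genes, Kdr and Pecam1 among the vessel genes and Grm6 and Trpm1 among the bipolar genes. So did Slc6a9 of the amacrine and Pou4f1 and Rbpms of the ganglion list. In the lists with overlapping means, Pde6b (9.04 to 9.13 and 7.87 to 8.33), Nr2e3, Lhx1 and Slc26a4 did not overlap. How many of all genes did not overlap was not counted. The part of these marker differences in the shifts was not tested.

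Shifts of 0.8 or more were most numerous across the whole span of ages, and few lay within the middle of it. Against 1 month, 151 probe sets were past 0.8 at 2 months (0.148%), 337 at 4 months (0.330%) and 199 at 6 months (0.195%). Between 6 and 2 months there were 33 (0.0323%), with 21 upward and 12 downward, and between 4 and 2 months 82 (0.0803%), with 13 upward and 69 downward. The late step from 6 to 10 months had 193 (0.189%), with 96 upward and 97 downward. From 4 to 6 months there were 121 (0.119%), but 55 without replicate 4 of 4 months, and from 4 to 10 months 171 (0.168%), but 292 without that array. These counts share arrays with each other and carry no test.

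**Figure D1:**
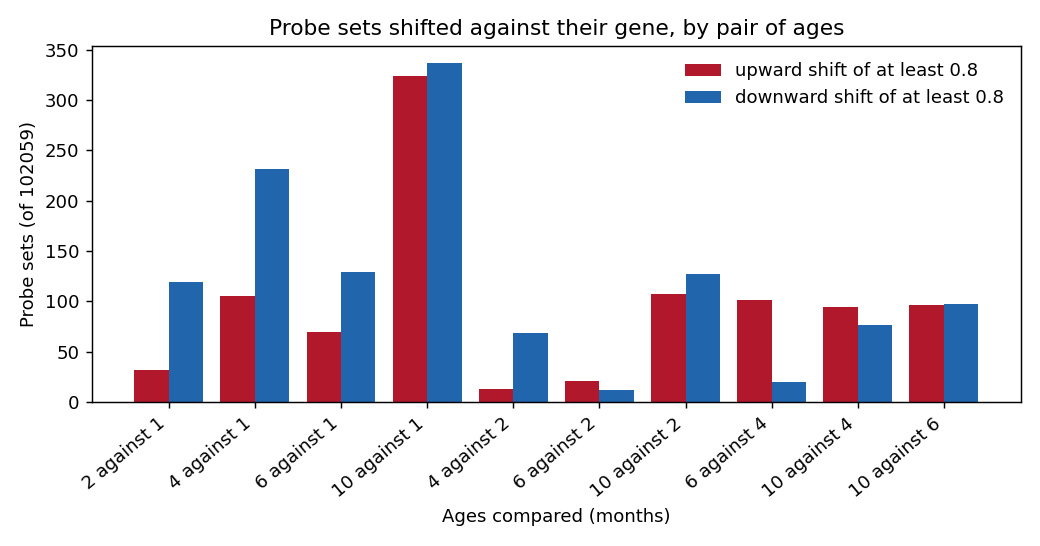
Number of eligible probe sets (of 102059) whose mean deviation differed by at least 0.8 log2 units, for each of the 10 pairs of ages, with upward shifts in red and downward shifts in blue. The pair 10 against 1 month, which defines the members, has 324 and 337, and the pair 6 against 2 months has 21 and 12.

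The median shift was 0.94 for upward members and -0.98 for downward ones. A size of 1 was passed by 117 upward and 159 downward members and a size of 1.5 by 7 and 27. The largest shifts were 1.84, in Ermap, and -2.78, in Wdfy1. The deviations of 1 and 10 months did not overlap for 526 members (79.6%), 263 in each direction, where 7.68% of all eligible probe sets did not overlap; the rule used this contrast and nothing is read from the difference. The threshold falls in a continuous range of shifts: 231 members lay between 0.8 and 0.9 in size and 429 other probe sets between 0.7 and 0.8. The 3 upward members nearest to it, each at 0.80, were in Rps6kb2, Cyc1 and Fbxl19, and the 3 probe sets just short of it were in Gpt2 (0.7997), Mlx (0.7992) and Kdm4c (0.7990). On the downward side the nearest members were in Araf (-0.8014), Lag3 (-0.8016) and Zfp523 (-0.8021), and those just short of it in Pcf11 (-0.7998), Mapkapk2 (-0.7992) and Syngr1 (-0.7990). The number of members rested on single arrays. Without replicate 4 of 10 months it was 998, with 520 upward, and without replicate 3 of 1 month 849, with 497 upward.

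Upward and downward members differed in what made up the shift. A shift is the probe set's own log2 difference between 10 and 1 month minus that of its gene. In upward members the probe set's own difference had a median of 0.42 and its gene's a median of -0.53, and the gene's difference was the larger of the pair in 188 of 324. In downward members the medians were -1.05 for the probe set and -0.03 for the gene, and the probe set's own difference was the larger in 295 of 337. An own difference of at least 0.8 in the direction of the shift was found in 40 upward and 246 downward members. The median gene difference over all 6401 eligible genes was -0.01. The gene's lower level was thus more often the larger part of an upward shift, and the probe set's own lower level that of a downward shift. The RNA came from whole retinas, in which fewer cells of a type and less RNA per cell cannot be told apart.

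**Figure D2:**
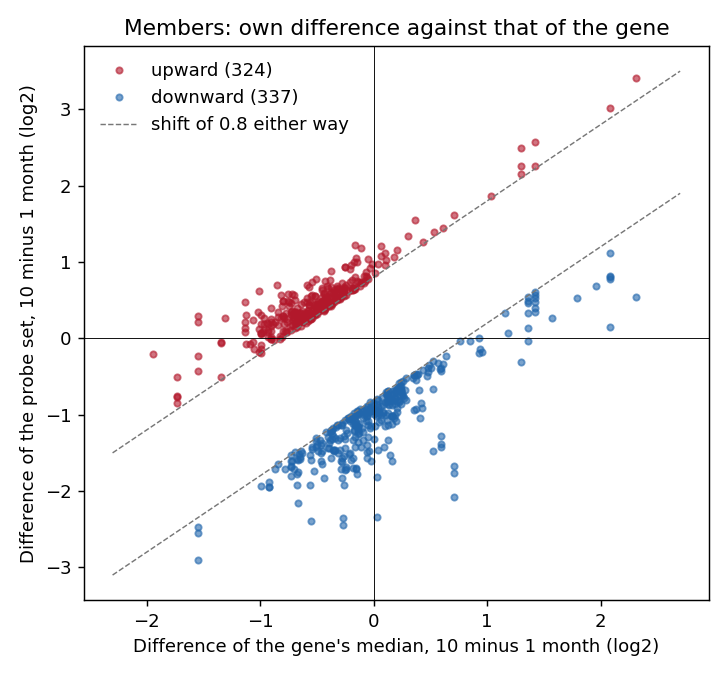
Each member's own log2 difference between 10 and 1 month (vertical) against that of its gene's median (horizontal), in log2 units, with dashed lines at a shift of 0.8 in size, with upward members in red and downward members in blue. Downward members gather around a gene difference of -0.03 and an own difference of -1.05, and upward members around -0.53 and 0.42.

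Downward members were dim. Their median level over the 20 arrays was 7.0, against 8.06 for upward members and 8.86 for all eligible probe sets. A level under 7 was held by 170 downward and 76 upward members, together 37.2% of members, against 8.0% of the eligible. With the limit on a probe set's level raised from 6 to 7, 415 members were left, 167 of them downward, and the upward share was 59.8% in place of 49.0%. Of the downward members 295 lay below their gene's median level, and of the upward members 180, together 71.9%, against 47.8% of the eligible. The part of dim signal in the shifts was not tested.

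Over the 5 ages the largest steps of the members lay from 1 to 2 and from 6 to 10 months. Each of these steps touches an age that the rule used. The median deviation of upward members, relative to 1 month, was 0.43 at 2 months, 0.53 at 4, 0.46 at 6 and 0.94 at 10. For downward members it was -0.52, -0.66, -0.57 and -0.98. The largest step lay between 1 and 2 months for 137 upward and 174 downward members and between 6 and 10 months for 168 and 139, and it lay between 2 and 4 months for 11 and 17 and between 4 and 6 months for 8 and 7. The ends of these paths are fixed by the rule. Choosing members by 1 and 10 months favours the steps that touch those ages, so no course over age is read from them. The step from 1 to 2 months also cannot be told apart from the Y-linked difference. At 6 months 13 upward and 23 downward members had the opposite sign.

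Single arrays differed at 4 and at 10 months. The median over the upward members, relative to the mean of 1 month, was 0.15, 0.62, 0.45 and 0.97 on the 4 arrays of 4 months, and 0.96, 0.98, 1.25 and 0.75 on those of 10 months. The highest of the 4 months arrays, replicate 4, therefore reached the level of 10 months, while the lowest stood beside the 1 month arrays, at -0.23, 0.04, 0.19 and 0.04. At 2 months the values were 0.49, 0.40, 0.27 and 0.52 and at 6 months 0.50, 0.42, 0.44 and 0.49. Downward members spread less: -0.52, -0.64, -0.57 and -0.79 at 4 months and -0.98, -0.98, -1.13 and -0.93 at 10 months. The standard deviation of a member's deviation over the 4 arrays of an age had a median of 0.28 at 1 month, 0.40 at 4 months and 0.34 at 10 months, against 0.14, 0.19 and 0.16 for all eligible probe sets.

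**Figure D3:**
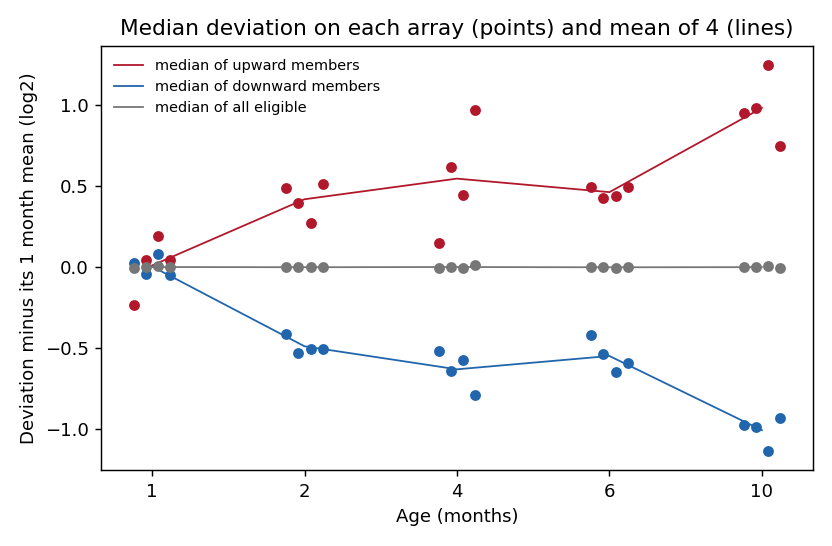
Median deviation of the upward members (red), of the downward members (blue) and of all eligible probe sets (grey) on each of the 20 arrays, in log2 units relative to the mean of the 4 arrays of 1 month, by age in months at even spacing, with lines through the mean of the 4 arrays of an age. The arrays of 2 and 6 months lie close together, replicate 4 of 4 months stands at 0.97 for upward members, and the 10 months arrays lie between 0.75 and 1.25.

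The ages of 2, 4 and 6 months entered the rule only through its level filters over all 20 arrays and not its contrast, and could be tested. No probe set's deviation was called among the 102059 by limma with Benjamini-Hochberg adjustment over the 12 arrays, for 6 against 2, 4 against 2 or 6 against 4 months or over all 3 ages (0% called). At an unadjusted p under 0.05 there were 3493 (3.42%), 4099 (4.02%), 5491 (5.38%) and 4134 (4.05%). The members had 42 of 661 (6.35%), 54 (8.17%), 44 (6.66%) and 50 (7.56%) at that level, and their smallest adjusted p was 0.869, for 6 against 4 months. All arrays of 2 months were low in Eif2s3y and those of 4 and 6 months were not, so in comparisons with 2 months age cannot be told apart from this Y-linked difference. A fit on all 20 arrays called 1 probe set for 4 against 2 months and 0 for the other comparisons of the middle ages. The median standard error of a member's difference for 6 against 2 months was 0.216, larger than the members' median differences over the middle ages.

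Directions over the middle ages were only loosely those of the whole span. From 2 to 6 months, 203 of the 324 upward members were higher and 194 of the 337 downward members were lower, with medians of 0.05 and -0.05, where 49.4% of all eligible probe sets were higher. From 2 to 4 months it was 257 and 228, with medians of 0.13 and -0.12, where 49.9% of all eligible were higher. From 4 to 6 months the medians turned, to -0.09 and 0.07, and 104 upward members were higher and 130 downward members lower. These 3 comparisons share arrays, and the array that stood apart at 4 months enters the last pair. The same-sign count from 2 to 6 months, 397 of 661, lay between 354 and 411 when an array was left out, was 308 of the 483 members found with the gene's mean in place of its median as the centre, and was 253 of the 415 members brighter than 7.

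The downward members included probe sets of photoreceptor genes. Of the 45 eligible genes of the photoreceptor list, with 815 probe sets, 9 held 13 members (1.60%, against 0.648% of all eligible), 2 upward and 11 downward. The median shift over all the list's probe sets was 0.00, as for all eligible ones. Of the gene medians, 2 of the 45 were called lower at 6 than at 2 months by limma, where 15 of all 6401 genes (0.234%) were called and 5 to 46 when an array was left out. Age cannot be told apart from the Y-linked difference in this comparison. None of the list's probe sets was called over the middle ages by limma, and 21 of the 815 had an unadjusted p under 0.05 for 6 against 2 months, where 3.42% of all eligible did.

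Sag encodes arrestin of the rod type, which quenches light-activated opsin. Its probe set 4476157 read 9.12, 9.02, 9.46 and 9.16 at 1 month and 6.34, 6.14, 7.02 and 7.49 at 10 months. All 10 months arrays were below all 1 month arrays. On the 12 arrays in between it lay from 7.46 to 8.48, between the groups at the ends apart from the overlap with replicate 4 of 10 months. The gene's median went from 12.74 ± 0.12 (SD, n = 4) to 12.48 ± 0.03 (SD, n = 4), and the deviation from -3.56 ± 0.22 to -5.73 ± 0.62 (SD, n = 4 each), a shift of -2.17. A second Sag probe set, 4633606, read 9.72, 9.50, 9.90 and 9.73 at 1 month and 7.34, 6.95, 7.28 and 7.87 at 10 months, a shift of -2.09. The other 14 probe sets of Sag had a median difference of -0.26, from -0.54 to -0.06, so the pair lay far outside them.

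Tulp1 encodes a tubby-like protein needed for protein transport in photoreceptors. Its probe set 4616799 read 7.26, 7.76, 7.92 and 7.15 at 1 month and 5.37, 4.47, 4.69 and 5.99 at 10 months. The groups did not overlap, and the 2 months arrays, at 6.09, 5.62, 6.21 and 5.85, were below those of 1 month. All 2 months arrays and replicates 2 and 3 of 10 months, at 4.47 and 4.69, were low in Eif2s3y. Age cannot be told apart from this Y-linked difference on those arrays. The shift was -1.84, made of an own difference of -2.40 and a gene difference of -0.56. It was smaller without the 10 months arrays low in Y-linked genes, as given in the last section. A second Tulp1 probe set, 4827119, shifted by -1.04. Mak, a kinase of the photoreceptor cilium, had 3 downward members with shifts of -1.08, -0.96 and -0.95 in a gene that was itself -0.73 lower. Lca5, which encodes the ciliary protein lebercilin, went the other way: probe set 5604984 read 6.17, 7.04, 7.36 and 6.99 at 1 month and 7.48, 7.46, 7.76 and 7.37 at 10 months. Its own difference was 0.62 and the gene's -1.01, for a shift of 1.63. The gene's level thus made the larger part with its median as the centre. With the gene's mean as the centre the shift was 1.15, and the probe set's own difference was then the larger part.

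The synapse list had fewer members than the photoreceptor list, where 0.648% of all eligible probe sets were members. Of 54 eligible genes with 1385 probe sets, 4 genes held 1 downward member each (0.289%), with none called over the middle ages by limma and 37 of the 1385 at an unadjusted p under 0.05 for 6 against 2 months (3.42% of all eligible). The largest was in Slc17a7, the vesicular glutamate transporter of photoreceptor and bipolar terminals. Probe set 4501597 read 9.56, 9.47, 9.54 and 9.05 at 1 month, 8.60, 8.03, 8.38 and 8.12 at 2 months and 7.54, 7.57, 8.04 and 8.05 at 10 months. All later arrays shown lay below those of 1 month. The 2 months arrays were low in Eif2s3y, so the step from 1 to 2 months cannot be told apart from this Y-linked difference. The shift was -1.58 with the gene at -0.02. Ptprd, a receptor phosphatase that organises synapses, had a member at -1.30. Stx3, the syntaxin of ribbon synapses, had one at -0.87, and Nlgn2, an adhesion protein of inhibitory synapses, one at -0.82, whose groups of 1 and 10 months overlapped.

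Usp54, a gene of the ubiquitin-specific peptidase family, gave a shift of -2.36 in a gene whose median stayed level. Its probe set 5015563 read 7.79, 7.71, 7.96 and 7.85 at 1 month, 6.48, 6.69, 6.76 and 6.76 at 2 months, 6.49, 6.89, 6.93 and 6.46 at 4 months, 7.57, 7.14, 6.28 and 6.17 at 6 months and 4.82, 5.83, 6.07 and 5.23 at 10 months. The 1 month arrays were highest and the 10 months arrays lowest without overlap, and replicates 1 and 2 of 6 months stood above the other 2 of their age. The gene was 8.69 ± 0.05 (SD, n = 4) at 1 month and 8.72 ± 0.09 (SD, n = 4) at 10 months, and the shift was -2.36. A second member of the gene, 5550561, shifted by -1.85, while the 16 other probe sets had a median difference of 0.02, from -0.47 to 0.23.

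Pcp2, a modulator of G-protein signalling known from Purkinje and ON bipolar cells, had 4 downward members among 9 probe sets. Probe set 5012526 read 8.52, 8.76, 8.90 and 7.86 at 1 month and 6.74, 7.39, 6.90 and 7.30 at 10 months. The groups did not overlap, though replicate 1 of 6 months, at 8.53, was as high as 1 month. Its own difference was -1.43 and that of the gene 0.59, for a shift of -2.02 (-1.29 with the gene's mean as the centre), and the other members shifted by -1.97, -1.87 and -1.02. The 5 other probe sets were all higher at 10 months, with a median difference of 0.72, from 0.41 to 0.82. In the gene table Pet100 overlaps Pcp2.

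**Figure D4:**
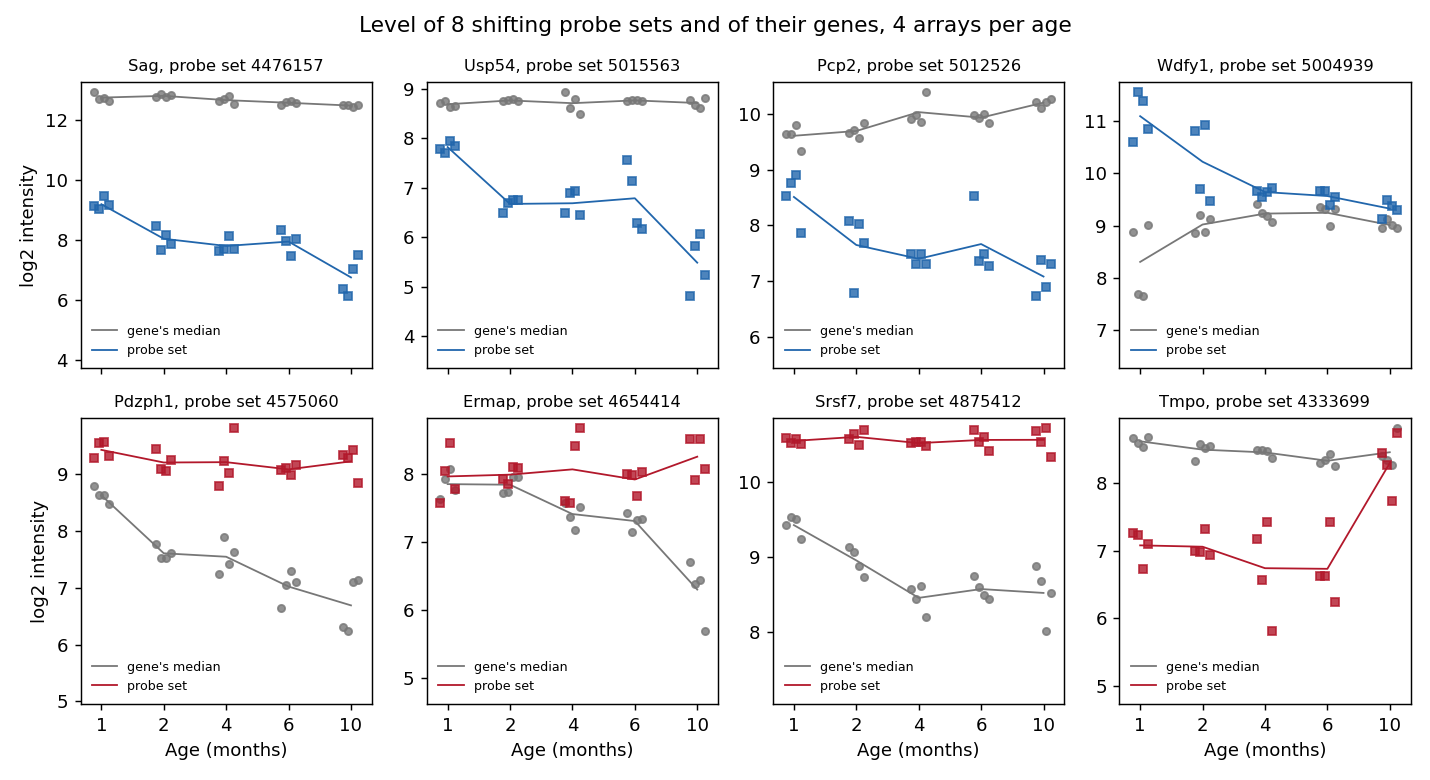
Log2 intensity of 8 members (squares, red for upward and blue for downward) and the median of their gene (grey circles) on each array, by age in months at even spacing, with 4 arrays per age and lines through their means. In the Sag and Usp54 panels the member is lower at 10 months than at 1 month (-2.44 and -2.34) while the gene stays close to its level, and in the Pdzph1 and Srsf7 panels the member differs by -0.20 and 0.01 while the gene is lower.

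The largest downward shift, -2.78, was in Wdfy1, which encodes an endosomal protein with FYVE and WD40 domains, and its arrays fell into separate levels within 1 age. Member 5004939 read 10.59, 11.54, 11.38 and 10.84 at 1 month and 10.81, 9.69, 10.91 and 9.46 at 2 months. At 2 months replicates 1 and 3 stood with 1 month, and replicates 2 and 4 stood with the later ages, which lay between 9.13 and 9.72. The gene's median was also split at 1 month, at 8.87, 7.69, 7.66 and 9.01, and was 9.01 ± 0.08 (SD, n = 4) at 10 months. Probe set 5565039, with the shift of -2.78, had an own difference of -2.08 and a deviation of -0.42 ± 0.98 at 1 month and -3.20 ± 0.67 at 10 months (SD, n = 4 each). With arrays of 1 age at separate levels, a difference between ages cannot be told apart here from one between mice, and which differences the mice carried was not tested. Wdfy1 had 3 members, and its 10 other probe sets ranged from -1.39 to 1.05. In the table Mrpl44 overlaps this gene.

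Further large downward shifts lay in genes of various roles. Eif5, a translation initiation factor, had a member at -1.99 whose 1 month arrays read 6.96, 6.86, 7.47 and 7.02 and whose 10 months arrays read 5.07, 5.45, 5.96 and 5.93, and a second at -1.18. Ring1, a ubiquitin ligase of Polycomb complexes, read 8.19, 8.24, 8.35 and 8.12 at 1 month and 6.58, 6.71, 6.86 and 6.33 at 10 months at its probe set 5259040. The spread within either age was small and the shift was -1.77. Rae1, of messenger RNA export, shifted by -1.67 at 1 probe set, Ciz1, a nuclear zinc finger protein, by -1.66, and Marf1, an RNA-binding regulator first known from oocytes, by -1.63. Ppp1r9a, which encodes the actin-binding neurabin, had 4 downward members at -1.18, -1.18, -1.18 and -0.85 with the gene at 0.16.

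Genes of the splicing list held members in both directions. Of the 48 eligible genes with 691 probe sets, 10 held 17 members (2.46%, against 0.648% of all eligible), 8 upward and 9 downward. The median shift over the list's probe sets was 0.01. None was called over the middle ages by limma, with 34 of the 691 at an unadjusted p under 0.05 for 6 against 2 months (3.42% of all eligible).

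Qk, which encodes the RNA-binding protein quaking, had 4 downward members. Probe set 5513149 read 8.06, 8.37, 8.27 and 7.73 at 1 month, 7.46, 7.51, 7.41 and 7.33 at 2 months and 6.75, 6.89, 6.54 and 6.99 at 10 months. These ages did not overlap. The gene's own difference was 0.00 and the 4 shifts were -1.32, -0.99, -0.95 and -0.88, while the 14 other probe sets lay between -0.21 and 0.24. Rsrp1, an arginine- and serine-rich nuclear protein, had 1 member, which shifted by -0.88 as its gene was -0.63 lower.

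Srsf7, an SR protein that binds exons and aids their inclusion, had 4 upward members, at 1.00, 0.92, 0.89 and 0.89. Probe set 4875412 read 10.59, 10.52, 10.58 and 10.50 at 1 month and 10.67, 10.53, 10.72 and 10.33 at 10 months, an own difference of 0.01. The gene's median went from 9.43 ± 0.14 to 8.52 ± 0.37 (SD, n = 4 each), and the 9 other probe sets had a median difference of -1.12, from -1.67 to -0.14. Members kept their level, and so did 3 other probe sets of the gene that did not reach the threshold, with differences down to -0.15. Tra2a, a partner of SR proteins in exon inclusion, had 1 member in each direction. Its upward probe set 4435888 read 10.21, 10.51, 10.72 and 10.58 at 1 month and between 10.63 and 11.33 at 10 months, a shift of 1.19 with the gene at -0.69, and its downward one shifted by -0.80. Rbm5, an RNA-binding protein of the early spliceosome, had an upward member at 1.44 with the gene at -1.13, and Sfpq, a paraspeckle and splicing protein, one at 1.02 with the gene at -0.76.

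Of the other lists, the 18 eligible mitochondrial genes (216 probe sets) and the 22 of glia and stress (343) held 0 members, where 0.648% of all eligible probe sets were members. At that share lists of this size would hold few, so nothing is read from the 0. The list of symbols starting with Rpl or Rps held 4 (2.61% of 153), 2 in each direction, and all lay in Rps6kb1 and Rps6kb2, which encode S6 kinases and not ribosomal proteins. Rps6kb2 had shifts of -1.39, 1.04 and 0.80 and Rps6kb1 one of -1.19. No probe set of the mitochondrial, the glia and stress or this list was called over the middle ages by limma, and 6, 14 and 6 of their 216, 343 and 153 had an unadjusted p under 0.05 for 6 against 2 months (3.42% of all eligible). The median shift was -0.02 for the mitochondrial and -0.01 for the Rpl and Rps list. Of gene medians, 1 of the 22 of glia and stress was called higher at 6 than at 2 months by limma (0.234% of all genes were called). Here too age cannot be told apart from the Y-linked difference. The splicing kinases Clk1 and Clk4 were eligible and held no member, while Srsf5 and Cirbp had too few probe sets to be eligible and Rbm3 was not analysed here.

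Members often came together. Of the 516 genes, 424 held 1 member and 92 held more, 28 of them 3 or more. In 75 of the 92 all members went the same way, upward in 38 and downward in 37, and in 17 they went both ways. Probe sets of a gene share its median, so these counts are not independent, and a gene whose median moves carries every probe set that stays.

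Ermap, which encodes an erythroblast membrane protein of the immunoglobulin superfamily, had 7 members among 16 probe sets and the largest upward shift. Probe set 4654414 read 7.57, 8.05, 8.46 and 7.77 at 1 month and 8.51, 7.91, 8.52 and 8.08 at 10 months. These levels overlapped, while the gene's median went from 7.85 ± 0.19 to 6.30 ± 0.43 (SD, n = 4 each), which gave the shift of 1.84. Downward member 5371396 read 9.28, 9.26, 9.25 and 9.19 at 1 month, 9.24, 9.03, 9.15 and 9.40 at 2 months, 8.39, 8.04, 8.17 and 7.77 at 4 months, 7.54, 8.17, 8.65 and 8.58 at 6 months and 6.92, 6.78, 6.14 and 5.55 at 10 months. It was level over the first pair of ages, lower at 4 and 6 months and lowest at 10, an own difference of -2.90. The gene thus held 4 upward members with own differences from -0.42 to 0.29 and 3 downward ones with -2.48 to -2.90.

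Zfp691, a zinc finger gene that the table lists next to Ermap, had 4 upward members at 1.22, 0.98, 0.96 and 0.89. Their own differences were from -0.51 to -0.84, in a gene that went from 9.33 ± 0.37 to 7.60 ± 0.23 (SD, n = 4 each). The 4 other probe sets had a median difference of -1.93. Tceanc2, a gene with a transcription elongation factor domain, held 6 upward members at 0.80 to 1.07, all with own differences between -0.19 and 0.07, and 1 downward member at -0.94 with an own difference of -1.93. Its gene difference was -0.99, but most of its probe sets were lower by less than that. The 5 other probe sets had a median difference of -1.48, with 4360202 at -0.32 and 4437485 at -0.28. Ip6k2, an inositol hexakisphosphate kinase, had 4 upward members at 0.84 to 0.91 with the gene's median at -0.53. Its 15 other probe sets had a median difference of 0.04, so most of the gene's probe sets were not lower. Some were, such as 4883331 (-0.70) and 5340274 (-0.96). The 4 members thus did not stand apart from a gene that was lower throughout.

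**Figure D5:**
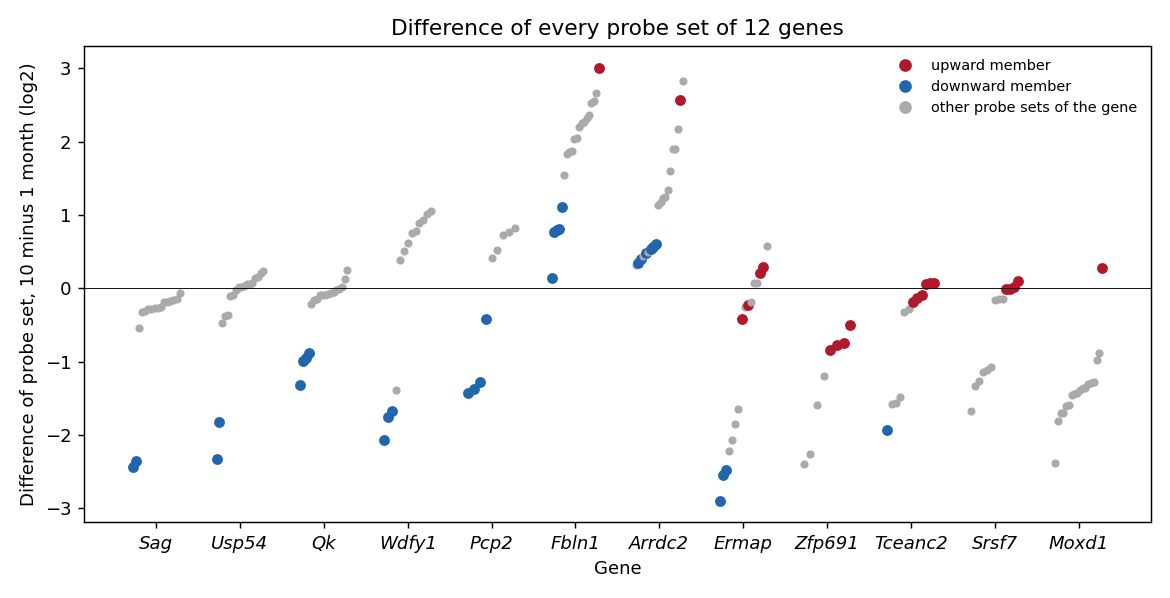
Log2 difference between 10 and 1 month of every probe set of 12 genes, in rank order within each gene, with upward members in red, downward members in blue and the other probe sets in grey. The Sag pair lies near -2.4 below the others, and the Moxd1 member, at 0.27, lies above 17 others between -2.39 and -0.89.

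In several genes 1 probe set alone kept its level. Pdzph1, with PDZ and pleckstrin homology domains, had an upward member that read 9.30, 9.55, 9.57 and 9.32 at 1 month and 9.34, 9.30, 9.44 and 8.86 at 10 months. The gene went from 8.63 ± 0.13 to 6.69 ± 0.49 (SD, n = 4 each), and the 16 other probe sets had differences from -2.18 to -1.19. The shift of 1.74 thus had an own difference of -0.20 in it.

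Moxd1, a relative of dopamine beta-hydroxylase, had the same form. Probe set 4432992 read 9.76, 9.50, 10.00 and 9.86 at 1 month and 10.09, 10.14, 10.14 and 9.83 at 10 months, and lay between 9.81 and 10.07 in between, level throughout. The gene went from 9.73 ± 0.10 to 8.41 ± 0.03 (SD, n = 4 each), and the 17 other probe sets had a median difference of -1.43. The member's deviation was 0.63 ± 0.11 (SE) higher at 6 than at 2 months, with an adjusted p of 1 in limma over all eligible probe sets. Upward shifts in genes with a lower level at 10 months also stood in Eya1 (1.62, with further members at 1.27 and 1.22), a phosphatase and transcriptional coactivator, and in the centriole gene Spice1 (1.55). Fam161b (1.37), the phospholipase-like Pnpla3 (1.35), Gcfc2 (1.33 and 1.24) and the ceramidase Acer2 (1.39 and 1.08) were further genes of this kind, with gene differences from -0.75 to -1.13. These members did not all stay level: their own differences reached 0.57 in Acer2, 0.58 in Gcfc2 and 0.70 in Spice1.

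Tmpo, which encodes lamina-associated thymopoietins of the nuclear envelope, had an upward member whose own level was higher. Probe set 4333699 read 7.27, 7.23, 6.73 and 7.10 at 1 month, 7.0, 6.98, 7.33 and 6.93 at 2 months, 7.18, 6.57, 7.42 and 5.81 at 4 months, 6.63, 6.63, 7.43 and 6.25 at 6 months and 8.44, 8.27, 7.73 and 8.74 at 10 months. All 10 months arrays were above all others. The own difference was 1.22 with the gene at -0.16, and a downward member of the gene shifted by -0.85.

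Some members lay in genes that were higher at 10 months. Fbln1, the matrix protein fibulin, had a gene level of 6.60, 6.83, 6.81 and 6.63 at 1 month, 6.52, 9.14, 9.71 and 6.82 at 2 months, 6.67, 9.11, 8.10 and 6.81 at 6 months and 9.68, 6.64, 9.24 and 9.65 at 10 months. Replicates 2 and 3 of 2 and of 6 months and replicates 1, 3 and 4 of 10 months were high, so the groups overlapped. The extracellular glutathione peroxidase Gpx3 was high on the same arrays, at 9.87, 7.28, 9.53 and 9.50 at 10 months. Of the 6 pigment epithelium markers, Slc26a4 read 7.0, 5.54, 6.68 and 6.62 at 10 months and 4.78 to 5.32 at 1 month, and it was also high on replicates 2 and 3 of 2 months, at 5.95 and 6.50 against 4.61 and 4.91. Rpe65 read 7.90, 6.25, 7.39 and 8.65 at 10 months, but 6.41 and 6.56 on replicates 2 and 3 of 2 months against 6.36 and 6.39, so it followed Fbln1 at 10 months and hardly at 2 months. At 6 months Rpe65 was lower on replicates 2 and 3 (6.48 and 6.54) than on the other arrays (7.22 and 6.86). Slc26a4 was higher there, at 6.60 and 5.96 against 5.31 and 5.55. Ttr, Tyr and Pmel were also lowest on replicate 2 of 10 months, at 8.83, 4.44 and 6.61. Best1 was not, at 5.80 there against 5.57 to 5.69. At 2 months Ttr, Tyr, Pmel and Best1 did not set replicates 2 and 3 clearly apart. The part of such tissue in these members was not tested.

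The downward members of these genes were probe sets that stayed or were higher by less than their gene. Fbln1 probe set 5265865 read between 11.61 and 11.94 on all 20 arrays, and its shift of -1.94 came with a gene difference of 2.08. On replicate 2 of 10 months its deviation was 5.15, as at 1 month, and its groups overlapped. The other downward members of Fbln1 had own differences from 0.77 to 1.11, and its upward member 5297481 was 3.01 higher. Gpx3 probe set 5273560 shifted by -1.77, with an own difference of 0.54 and the gene at 2.31. The upward Gpx3 member 4701224 was 3.41 higher. Fbn1, which encodes the microfibril protein fibrillin, had 6 downward members at -0.82 to -1.40 among 77 probe sets, with the gene at 1.36. Arrdc2, an arrestin-domain gene, went from 6.68 ± 0.12 to 8.10 ± 0.34 (SD, n = 4 each). It had 6 downward members, at -0.81 to -1.07 with own differences from 0.34 to 0.61, and 1 upward. The upward one, 4529116, read 5.87, 5.82, 5.15 and 5.57 at 1 month and 7.72, 8.04, 8.56 and 8.36 at 10 months, an own difference of 2.57 without overlap.

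Fbxw21 belongs to a family of closely related F-box genes, whose near copies may share signal, so its values are uncertain. It had 3 upward members, at 1.19, 0.96 and 0.86, and 1 downward at -1.61, with the gene at 1.30. The downward probe set 4678037 read 7.12, 6.64, 7.0 and 7.03 at 1 month and 6.62, 6.55, 6.74 and 6.62 at 10 months. It was close to level. The upward probe sets were 2.15 to 2.49 higher.

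The levels of member genes, as opposed to deviations, could be tested at the middle ages too. All arrays of 2 months were low in Eif2s3y and those of 6 months were not. In the calls below age therefore cannot be told apart from this Y-linked difference, in any of the fits. For 6 against 2 months limma called the median of 15 of 6401 genes (0.234%) with Benjamini-Hochberg adjustment, 5 of them member genes, which are named here after their values were seen. Fbxw21 rose by 0.98 ± 0.12 (SE, adjusted p = 0.00148), Mfng, a glycosyltransferase of Notch, fell by 0.58 ± 0.07 (SE, adjusted p = 0.00148) and Moxd1 fell by 0.60 ± 0.09 (SE, adjusted p = 0.00502). These 3 stayed past the threshold in all 15 alternative fits. Ermap fell by 0.53 ± 0.09 (SE, adjusted p = 0.0326) and was lost in 8 of the 15, and Ddx3x, an X-linked RNA helicase, fell by 0.36 ± 0.07 (SE, adjusted p = 0.0431) and was lost in 11. The number called was 46 without replicate 4 of 4 months and 56 with the mean of the probe sets as the gene's level. It was 5 without replicate 3 or 4 of 2 months or replicate 1 of 6 months, 6 without replicate 2 of 4 months or replicate 2 or 4 of 6 months, and 9 without replicate 3 of 6 months.

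The gene table was also used for neighbours. Of the 516 member genes 515 were found in it, 122 of them overlapped another protein-coding gene, and 22 stood next to another member gene. The shares over all eligible genes were not counted, so nothing about the members is read from these numbers. Among the member genes named above, Wdfy1, Pcp2, Fam161b (with Coq6), Gcfc2 (with Mrpl19) and Sfpq (with Zmym1) overlapped a neighbour. So did Rps6kb1 (with Rnft1), Araf (with Syn1) and Ppp1r9a (with Gmfg-ps). Which of the transcripts a probe set read there was not tested.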

How the data were processed

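The deposited values were log2 intensities per exon-level probe set, which the authors made with RMA (robust multi-array average) per the submitters' processing notes; its version is not given in the sources used here, nor is the build of the array. Ribosomal RNA was reduced before labelling, per the labels' protocols. There were 194293 probe sets and 20 arrays in the table, and the values ran from 0.986 to 14.3 and array medians from 7.76 to 7.78. Of these, 179496 had 1 gene symbol in the platform's table, 1328 had several and 13469 had none there, and only the first kind was used. The RefSeq table of GRCm38.p6 updated 2039 symbols and gave neighbours; of 15781 genes 15744 were current in it. Sequences of the probe sets were not analysed here.

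Deviations, shifts and the choice of members followed the rule given in the text. Tests were run with limma 3.58.1 in R 4.3.3 (lmFit, eBayes) on the 12 arrays of 2, 4 and 6 months (9 residual degrees of freedom), with two-sided p-values adjusted by Benjamini-Hochberg over all eligible probe sets or genes at 0.05. The steps were tested on simulated data. Replicates are separate mice, 4 per age, and this number limits the precision. The named genes were those of the 12 largest shifts in each direction and the 12 genes with the most members. Up to 4 genes of each gene list with their members, those nearest to the threshold and a fixed set were also named. Members called at the middle ages would have been named, and there were 0 in limma (with unadjusted counts in the text). Predicted genes, with 2 members, were not named. The members and lists were chosen with earlier results of these data known. Arrays of the same replicate number did not pair: their residual correlations ranged from -0.419 to 0.438. Figures were drawn with matplotlib 3.10.9.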

Additional observations from a re-analysis of the deposited data

Results flagged for a closer look

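For the 24 members named by rank, and for the array medians over upward and over downward members, 130 groups of 4 arrays were checked. The check was for 1 array far from the other 3 (a gap past Dixon's critical value). It flagged 10 groups, all of single members, and chance flags about 1 in 20 groups. Values are deviations in log2 units. Probe set 4894627 of Eya1 stood at -3.14 on replicate 1 of 1 month and at -1.99 on replicate 3 of 6 months. Moxd1 was at 1.37 on replicate 4 of 10 months, below the others at 1.69 to 1.74. Acer2 was at -1.0 and Gcfc2 at 2.29 on replicate 3 of 10 months, and Fam161b at 0.9 on replicate 1 of 1 month. Pcp2 was at -1.44 on replicate 1 of 6 months, where the others lay from -2.58 to -2.50. Fbln1 was at 5.15 on replicate 2 of 10 months, against 2.14 to 2.55. Rae1 was at -1.2 on replicate 1 of 4 months and Ciz1 at -1.79 on replicate 1 of 10 months.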

How the results depend on the processing

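The number of members, 661, was 413 with a gene level above 8 (197 upward, 216 downward), 415 with a probe set level above 7 (167 downward), 1898 with a shift of at least 0.6 (1021 and 877) and 276 with one of at least 1 (117 and 159). Requiring an own difference of 0.8 as well, chosen after seeing the data, left 286, with 40 upward. Leaving out an array in turn gave 546 to 998 members, 240 to 520 upward and 306 to 478 downward, and 5 to 46 gene medians called for 6 against 2 months. With the mean as centre 56 gene medians were called, 10 of them shared, and the fit of all 20 arrays called 1 deviation for 4 against 2 months. A replicate block, though the numbers share no more than a number (5 of 20 arrays were most like one of their own number), called 0 deviations in every comparison of the middle ages (limma) and 12 gene medians. The comparison of 6 with 4 months had 55 shifts and that of 10 with 4 months 292 without replicate 4 of 4 months, also chosen after seeing the data. The same-sign count over 2 to 6 months was 253 among members brighter than 7. With the mean as centre there were 483 members, 406 of them among the 661, and the shifts became 1.26 in Ermap, 1.15 in Lca5, -1.29 in Pcp2 and -1.35 in Ring1. Without the 10 months arrays low in Y-linked genes they became -2.90 in Usp54, -1.24 in Tulp1 and -1.98 in Ring1. No named shift changed sign in the alternatives run. Which direction had more members did turn: upward members were the more numerous in several alternatives, such as those brighter than 7 (248 against 167), a shift of 0.6, the mean as centre (242 against 241) and leaving out replicate 3 or 4 of 1 month or replicate 4 of 10 months. The cause was not tested.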
